A study of Homo sapiens with 30 samples.

Results

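Expression of 9 genes that write, read or erase DNA methylation was followed in V16D and MR49F prostate cancer cells treated with the antiandrogen enzalutamide, the androgen dihydrotestosterone (DHT) or the BET bromodomain inhibitor JQ-1. The genes are UHRF1 and UHRF2, the DNA methyltransferases DNMT1, DNMT3A and DNMT3B, the dioxygenases TET1, TET2 and TET3, and the chromatin remodeller HELLS. They were chosen by symbol, and all 9 were found among the 23710 gene symbols with read counts and the 23616 with FPKM (fragments scaled to transcript length and sequencing depth). RNA sequencing covered 10 conditions with 3 samples each, 30 samples in all. V16D is a castration-resistant derivative of the LNCaP line, and MR49F is an enzalutamide-resistant LNCaP derivative, selected in castrated mice. MR49F cells are kept in enzalutamide, which was withdrawn ahead of each experiment. Cells of both lines in 10% full serum (FBS) received vehicle (0.1% DMSO) or 10 µM enzalutamide for 24 h. MR49F cells were also held in 10% charcoal-stripped serum (CSS), which lacks most steroids, for 72 h and then given vehicle (DMSO and ethanol), 10 µM enzalutamide, 1 nM DHT, 500 nM JQ-1, or either ligand together with JQ-1, for 24 h. The study calls V16D the parental line of MR49F. A difference between them holds for this pair of lines and not for enzalutamide resistance in general.

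After replication, the daughter strand of DNA lacks methyl groups at CpG sites that are methylated on the parental strand. UHRF1 binds such half-methylated sites and the histone H3 tail and recruits DNMT1, which restores the missing methyl group. UHRF2 is a related protein, HELLS opens nucleosomal DNA for methylation, DNMT3A and DNMT3B methylate sites that carried no methyl group, and the TET enzymes oxidize the methyl group on the way to its removal. UHRF1, DNMT1 and HELLS are known to be transcribed mainly in dividing cells around the start of DNA synthesis. Transcript levels were measured here, and DNA methylation was not.

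The 250 bases ahead of the annotated start are shown for UHRF1, DNMT1 and HELLS, the maintenance genes, whose levels were lower in CSS than in full serum and higher with DHT, as RefSeq gives them on the GRCh38.p14 build, 5′ to 3′ on the strand of the gene. Capitals mark the words TTTCCCGC, TTTCGCGC, TTTGGCGC and TTTGCCGC on either strand, forms of the site bound by E2F factors, which drive genes of DNA synthesis. UHRF1 is read from chr19:4909251-4909500 on the plus strand, DNMT1 from chr19:10194954-10195203 on the minus strand and HELLS from chr10:94545538-94545787 on the plus strand.
UHRF1: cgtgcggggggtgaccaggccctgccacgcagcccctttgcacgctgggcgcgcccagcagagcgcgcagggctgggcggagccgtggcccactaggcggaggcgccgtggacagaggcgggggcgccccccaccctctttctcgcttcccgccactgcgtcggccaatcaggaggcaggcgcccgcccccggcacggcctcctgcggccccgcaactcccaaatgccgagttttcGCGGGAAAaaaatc
DNMT1: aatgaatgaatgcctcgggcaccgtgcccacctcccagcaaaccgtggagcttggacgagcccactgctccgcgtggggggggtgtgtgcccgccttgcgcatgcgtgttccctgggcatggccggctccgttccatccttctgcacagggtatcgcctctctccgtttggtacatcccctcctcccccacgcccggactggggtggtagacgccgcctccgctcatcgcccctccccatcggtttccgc
HELLS: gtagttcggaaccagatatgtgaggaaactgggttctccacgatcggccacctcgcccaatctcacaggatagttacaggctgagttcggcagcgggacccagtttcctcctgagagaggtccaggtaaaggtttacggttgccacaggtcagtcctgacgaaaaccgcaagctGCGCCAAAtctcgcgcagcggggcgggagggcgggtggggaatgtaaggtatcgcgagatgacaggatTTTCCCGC
UHRF1 carries TTTCCCGC on the minus strand, 14 to 7 bases before the start. HELLS carries TTTGGCGC on the minus strand, 76 to 69 bases before the start, and TTTCCCGC on the plus strand directly before it. The DNMT1 window holds none of the 4 words. At least 1 of them is present in 2.79% of the 35116 RefSeq windows of this length. Each word contains a CpG, and the windows shown are rich in CpG sites. They hold 28 (UHRF1), 21 (DNMT1) and 18 (HELLS), against a median of 11 over all windows. The share among windows equally rich in CpG sites was not counted. The second of the 3 annotated UHRF1 starts has TTTCGCGC, and no window of the other 6 members holds any of the words. The CCAAT box, present in 32.0% of all windows, occurs in the UHRF1 and HELLS windows shown, not in that of DNMT1, and shares no base with the E2F words there. The full palindromic consensus of the androgen response element was in none of the 20 windows of the members and in 1 window of all. These are matches of letters, and binding was not measured.

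On GRCh37, the build the reads were aligned to, UHRF1 lies on chromosome 19 from 4903092 to 4962165 and DNMT1 on the same chromosome from 10244018 to 10341962. HELLS lies on chromosome 10 from 96305086 to 96373662, and TET2 on chromosome 4 from 106067032 to 106200973. DNMT3A (25450724 to 25565459) and TET3 (74212037 to 74335303) are on chromosome 2, DNMT3B (31350191 to 31397165) on chromosome 20, TET1 (70320094 to 70454244) on chromosome 10 and UHRF2 (6413151 to 6507054) on chromosome 9. In the GENCODE annotation of that build no gene on the opposite strand shares exonic bases with a member. Genes on the same strand share 0.54% of the exonic bases of DNMT1 (S1PR2), 3.01% of those of TET3 and 3.08% of those of HELLS (a long non-coding RNA each), and reads there cannot be assigned with certainty.

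Counts on genes were 13170504 to 21154962 a sample in full serum and 982130 to 1813262 in CSS. The libraries held similar numbers of reads, 16925813 to 27262506 in full serum and 15813397 to 25971604 in CSS, counting those outside genes. Counts on genes were 72.97% to 77.813% of these reads in full serum and 5.13% to 7.66% in CSS. The libraries are strand-specific, and which strand was counted is not given in the sources used here. The strand was examined on 102 genes under 1 FPKM in MR49F vehicle samples of both sera that share at least 300 exonic bases with 1 gene of at least 10 FPKM on the opposite strand. Their median was 0.3955 CPM (counts scaled to the total on genes, normalized within each serum) in full serum and 4.03 CPM in CSS. Their upper quartile was 1.11 and 26.4 CPM. Counts of such genes in CSS thus went with an expressed gene on the other strand more than those in full serum did. How much of the members' own reads the CSS counts hold was not tested, and every edgeR value in CSS carries that limit. The meiotic gene SYCP3 had at most 7.13 CPM in the full serum groups of MR49F cells and up to 1363 in CSS groups, while its FPKM differed between the vehicle groups by -0.32 on a log2 scale (adjusted p = 0.357, limma), so counts and FPKM disagree for this gene in CSS. It shares exonic bases with CHPT1, at 519.2 FPKM in CSS vehicle, on the opposite strand. FPKM come from a separate program, so calls or values on both scales are given for the members in CSS. Most values of other genes in CSS, those of the lists included, rest on counts alone. Whether those genes share exonic bases with a gene on the opposite strand is not given, so the same limit holds for them. A gene is said to be called where its p, adjusted over all genes tested by Benjamini and Hochberg's method, was at most 0.05. All 10 luminal epithelial markers examined, among them KLK3 and KRT8, were at 1 FPKM or more in all 30 samples. The basal, leukocyte and endothelial markers (10 genes, including KRT5, TP63, PTPRC and CDH5) were below 1 FPKM in every sample. COL1A1, LUM and ACTA2 of the stromal list reached 1 FPKM in 17, 6 and 6 samples, and COL1A2 had 0 counts throughout. In full serum MR49F vehicle replicate 1 stood apart, its counts giving chi-square values per degree of freedom of 9.27 and 10.85 against its fellow replicates, which gave 2.16 between them. The study calls the samples of a group biological replicates and pooled wells for each, and the labels speak of plating in triplicate. Whether they were grown as separate cultures is not stated, so p-values measure the spread between these samples, which may be technical.

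UHRF1 had the widest range of the 9 genes, 44.08-fold between the lowest and the highest condition mean in FPKM. It was highest in full serum, at 18.5 ± 0.354 FPKM (SD, n = 3) in V16D and 17.9 ± 0.275 (SD, n = 3) in MR49F cells with vehicle. In CSS it measured 4.10 FPKM in each of the 3 vehicle samples. The plot of FPKM by condition shows 4 steps below full serum, namely DHT, enzalutamide, vehicle and, lowest, the 3 conditions with JQ-1. Those 3 conditions could not be told apart by their samples, with means of 0.42, 0.459 and 0.427 FPKM for JQ-1, enzalutamide with JQ-1 and DHT with JQ-1. V16D and MR49F vehicle samples in full serum also overlapped, and all other neighbours in the order of levels did not. In bulk RNA, fewer cells that express a gene and less of its RNA per cell cannot be told apart.

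**Figure D1:**
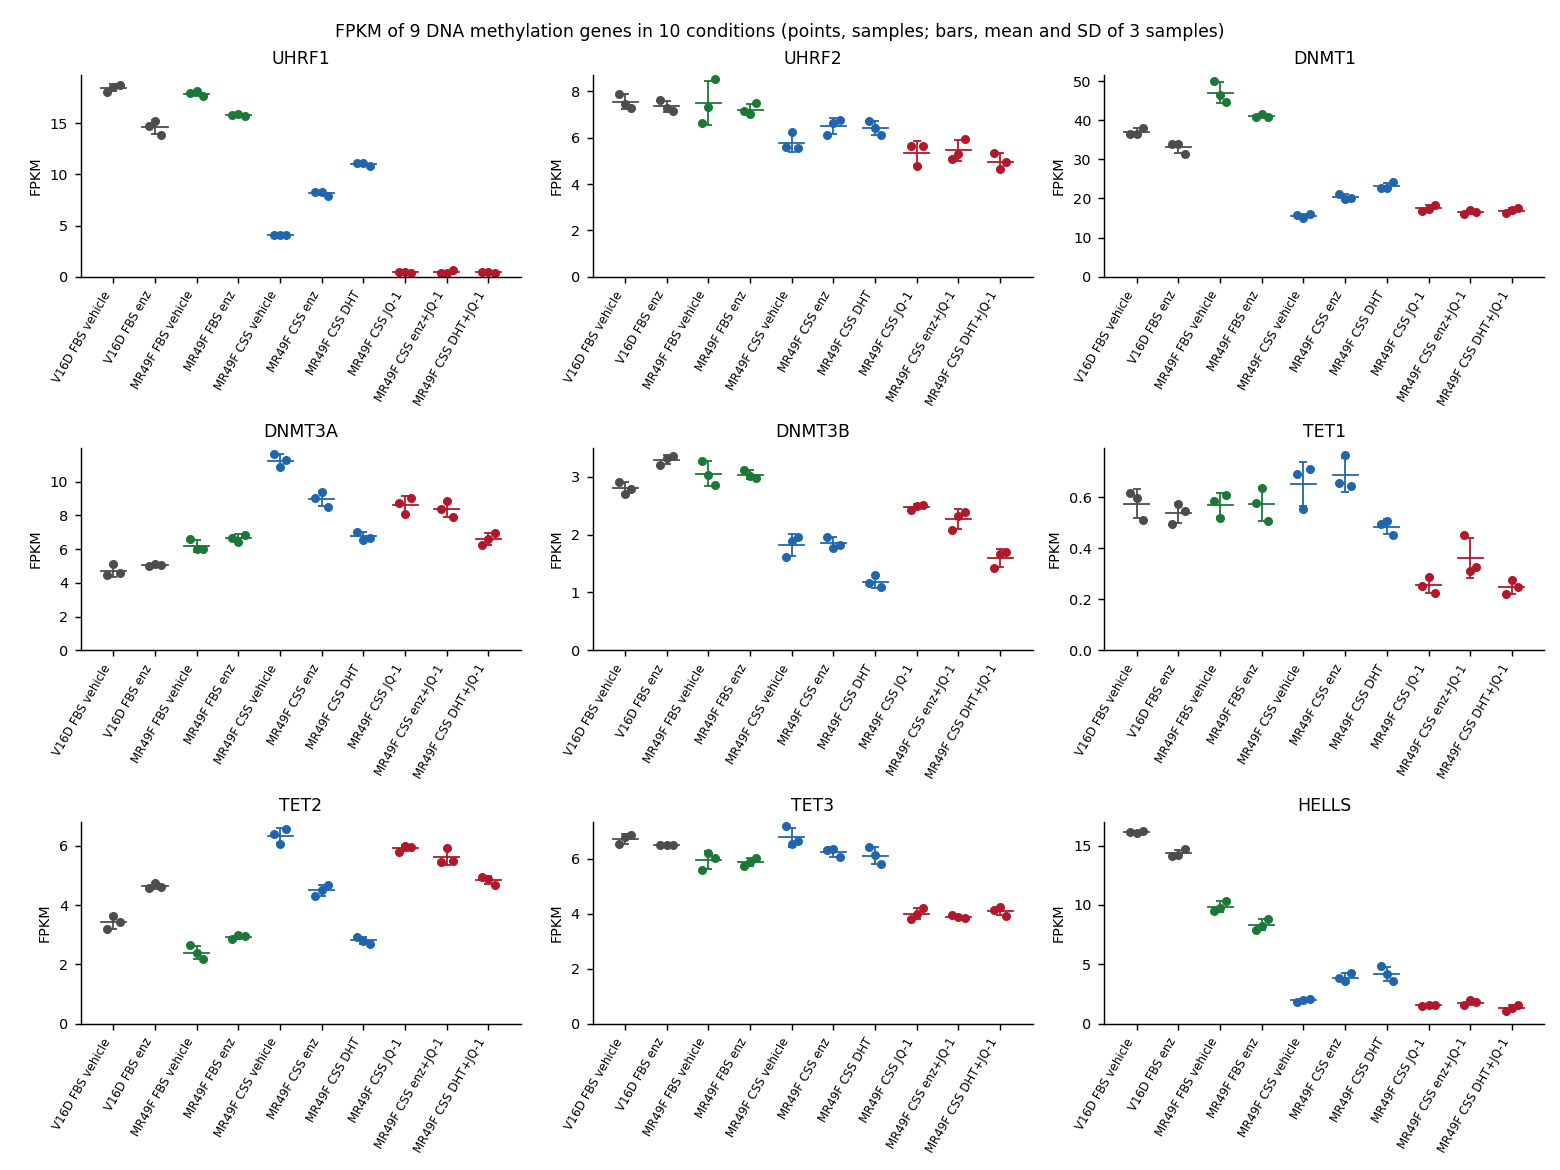
FPKM of the 9 genes (vertical axes, from 0) in the 10 conditions (horizontal axes), with points for samples and bars for the mean and SD of 3 samples; grey marks V16D, green MR49F in FBS, blue MR49F in CSS without JQ-1 and red MR49F in CSS with JQ-1. UHRF1 lies between 0.362 and 0.616 FPKM in the 9 samples with JQ-1 and at 4.10 FPKM or more in all other samples.

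DNMT1 was the most abundant member in FPKM in every condition, from 15.56 FPKM in CSS vehicle to 46.98 in MR49F cells in full serum, a 3.02-fold range. HELLS ranged 12.32-fold, from 1.31 FPKM with DHT and JQ-1 in CSS to 16.16 in V16D vehicle. DNMT3A and TET2 had another order and were highest in CSS vehicle, at 11.25 and 6.34 FPKM, with ranges of 2.38-fold and 2.64-fold. DNMT3B stayed between 1.19 and 3.30 FPKM and was lowest with DHT in CSS. UHRF2 and TET3 varied least, 1.52-fold and 1.75-fold. TET1 was the scarcest member, at 0.248 to 0.69 FPKM, and its count in CSS was between 1 and 15 reads per sample.

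The first question was what enzalutamide does to these genes where the serum supplies androgen. In V16D cells UHRF1, DNMT1 and HELLS fell and TET2 and DNMT3B rose. UHRF1 measured 18.1, 18.6 and 18.8 FPKM with vehicle and 14.8, 15.2 and 13.85 FPKM with enzalutamide. All enzalutamide samples lay below all vehicle samples. The log2 fold change in counts was -0.37 (SE 0.037, adjusted p = 4.62e-21 by edgeR's quasi-likelihood test). DNMT1, the maintenance methyltransferase, fell by 0.19 on the log2 scale (SE 0.0265, adjusted p = 7.56e-12, edgeR) and HELLS fell by 0.21 (adjusted p = 4.98e-06, edgeR). TET2 rose from 3.18, 3.65 and 3.44 FPKM to 4.57, 4.75 and 4.61 FPKM, a log2 fold change of 0.41 (SE 0.0451, adjusted p = 3.61e-17, edgeR). DNMT3B rose by 0.21 (adjusted p = 0.0147, edgeR), a call that was lost without enzalutamide replicate 3 or vehicle replicate 2 (largest adjusted p = 0.064) and by DESeq2 (adjusted p = 0.134). The DNMT1 call was lost in an equal-variance test on log2(FPKM + 1) across all genes (adjusted p = 0.0631), and held in limma. With these 5 of 9 members called, 37.5% of the 14079 genes tested were called in the same comparison. The coefficient of variation between samples beyond counting noise, as edgeR estimates it in common for all genes, was 1.83% there.

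In MR49F cells in full serum 3 of the 9 members were called, UHRF1, DNMT1 and HELLS, all lower, where 8.48% of 13927 genes were called. UHRF1 measured 17.9, 18.2 and 17.6 FPKM with vehicle and 15.85, 15.9 and 15.8 FPKM with enzalutamide, a log2 fold change of -0.22 (SE 0.0463, adjusted p = 0.0158, edgeR). DNMT1 had a log2 fold change of -0.24 (adjusted p = 0.0307, edgeR) and HELLS of -0.26 (adjusted p = 0.0233, edgeR). The samples of the groups did not overlap in FPKM for any of the 3, and how many of all genes were so separated was not counted. The calls depended on single samples: each was lost without vehicle replicate 2, without enzalutamide replicate 1 and without enzalutamide replicate 2, and those of UHRF1 and DNMT1 also without enzalutamide replicate 3 (largest adjusted p = 0.105, 0.155 and 0.117 for UHRF1, DNMT1 and HELLS, edgeR). Without vehicle replicate 1, the sample that stood apart, adjusted p was 2.195e-04 for UHRF1, 1.79e-05 for DNMT1 and 5.16e-04 for HELLS (edgeR). Limma on log2(FPKM + 1), which called 4.6% of 12496 genes there, called UHRF1 and neither DNMT1 (adjusted p = 0.0933) nor HELLS (adjusted p = 0.0829). TET2 measured 2.64, 2.38 and 2.18 FPKM with vehicle and 2.85, 2.98 and 2.95 FPKM with enzalutamide and was not called (log2 fold change 0.25, adjusted p = 0.0864, edgeR). Without vehicle replicate 1 it was called (0.33, adjusted p = 2.24e-05, edgeR).

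The difference between the lines in this response, tested as an interaction, was called for 0 of the 9 members and for 6.95% of 14471 genes. For UHRF1 it was 0.14 (SE 0.060, adjusted p = 0.179, edgeR) and for DNMT3B -0.29 (adjusted p = 0.101, edgeR). These 2 members had an unadjusted p under 0.05, a share not counted over all genes. DESeq2 also called 0, as did limma on FPKM, which called 6.04% of genes. Without MR49F vehicle replicate 1 UHRF1 was called (0.17, adjusted p = 0.0325, edgeR) and without MR49F vehicle replicate 3 DNMT3B was (-0.34, adjusted p = 0.0334, edgeR). Over the androgen-regulated genes examined (11, among them KLK3 and TMPRSS2), the same interaction was called for 10, with a median of 1.29.

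Between the lines with vehicle in full serum, 5 of the 9 members differed, against 63.7% of 14013 genes. HELLS was lower in MR49F cells, at 9.495, 9.72 and 10.4 FPKM against 16.2, 16.1 and 16.3 in V16D cells (log2 fold change -0.72, SE 0.052, adjusted p = 2.55e-07, edgeR). TET2 was lower by 0.51 on the log2 scale and TET3 by 0.17, whereas DNMT1 was higher by 0.34 and DNMT3A by 0.42 (largest adjusted p = 0.00807, edgeR). The TET3 difference was lost by limma on FPKM with no filter on low values (adjusted p = 0.0561). UHRF1 had a difference of -0.04 (adjusted p = 0.463, edgeR) and its samples overlapped.

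The next comparison set MR49F vehicle samples in CSS beside those in full serum, on log2(FPKM + 1) with limma, because the counts on genes differ so much in number. Serum, counts on genes, share of reads on genes, solvent and experiment change together here and cannot be told apart. The maintenance genes were lower in CSS and DNMT3A and TET2 higher. UHRF1 fell from 17.9 to 4.10 FPKM in the mean, a 4.365-fold difference (log2 difference -1.89, SE 0.0444, adjusted p = 1.05e-07, limma). HELLS was 5.01-fold lower (difference -1.87 on the same scale) and DNMT1 3.02-fold lower (-1.53). TET2 rose 2.64-fold, from 2.64, 2.38 and 2.18 FPKM to 6.39, 6.06 and 6.57 FPKM, a log2 difference of 1.11 (adjusted p = 5.435e-06, limma). DNMT3A rose 1.82-fold (0.77), DNMT3B fell by 0.52 and UHRF2 by 0.32 on the log2(FPKM + 1) scale, the last lost without CSS vehicle replicate 1 (adjusted p = 0.0506, limma). The size for UHRF2 depended on the scale, a 1.295-fold difference in FPKM and a 2.35-fold difference in CPM (-1.12 on the log2 scale of counts, adjusted p = 2.25e-05, edgeR). In CPM UHRF1 was 3.51-fold, DNMT1 2.09-fold and HELLS 7.38-fold lower in CSS. CPM were normalized within each serum and not between the sera, so these CPM folds, that of UHRF2 included, are approximate. TET3 was called at 0.17 (adjusted p = 0.0396, limma), and edgeR on counts gave the opposite sign, -0.20 (adjusted p = 0.0789). The TET3 call was kept in 1 of 6 fits with a sample left out, the one without full serum vehicle replicate 2 (largest adjusted p = 0.136, limma). These were 8 of the 8 members tested, where 73.3% of 12665 genes were called. All 33 S phase genes examined were lower in CSS, with a median of -1.71, where 39.2% of all genes tested were called lower and 34.1% higher.

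Enzalutamide in CSS, where the medium supplies little androgen, raised UHRF1 and DNMT1. UHRF1 measured 8.32, 8.31 and 7.91 FPKM with enzalutamide against 4.10 in each vehicle sample, and 92, 85 and 56 counts against 50, 37 and 33. Its log2 fold change in counts was 0.96 (SE 0.153, adjusted p = 3.99e-04, edgeR), the 147th highest of 11131 genes. DNMT1 rose from 15.67, 15.05 and 15.97 FPKM to 21.1, 19.9 and 20.01 FPKM, a log2 fold change of 0.52 in counts (SE 0.104, adjusted p = 0.00326, edgeR). HELLS went from 1.87, 1.97 and 2.07 FPKM to 3.835, 3.57 and 4.26 FPKM with no overlap. Its 6 to 18 counts per sample gave a log2 fold change of 0.91 that was not called (adjusted p = 0.11, edgeR), and limma on FPKM called it (0.72, adjusted p = 6.16e-05). TET2 and DNMT3A had log2 fold changes of -0.51 (adjusted p = 0.0519, edgeR) and -0.35 (adjusted p = 0.0978, edgeR) and were both called lower on FPKM. Thus 2 of 8 members tested were called on counts, where 7.26% of genes were, and 5 of 8 on FPKM, where 38.7% were.

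The response to enzalutamide in MR49F cells differed between the sera for 4 of the 9 members, against 11.4% of 14178 genes. The interaction was 1.23 for UHRF1 (SE 0.142, adjusted p = 1.84e-06, edgeR), 0.81 for DNMT1 (adjusted p = 3.19e-05, edgeR), 1.23 for HELLS (adjusted p = 0.00843, edgeR) and -0.71 for TET2 (adjusted p = 0.00959, edgeR). Each of these genes moved in opposite directions in the sera in its point estimates, as the plot of enzalutamide responses shows. The TET2 call was lost without CSS enzalutamide replicate 1 (adjusted p = 0.0643, edgeR). Limma on log2(FPKM + 1) called these 4 and DNMT3A (-0.39, adjusted p = 0.00152), where 34.1% of genes were called. The sera were run as separate sets of samples with different numbers of counts on genes, and the part of these in the interaction was not tested.

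**Figure D2:**
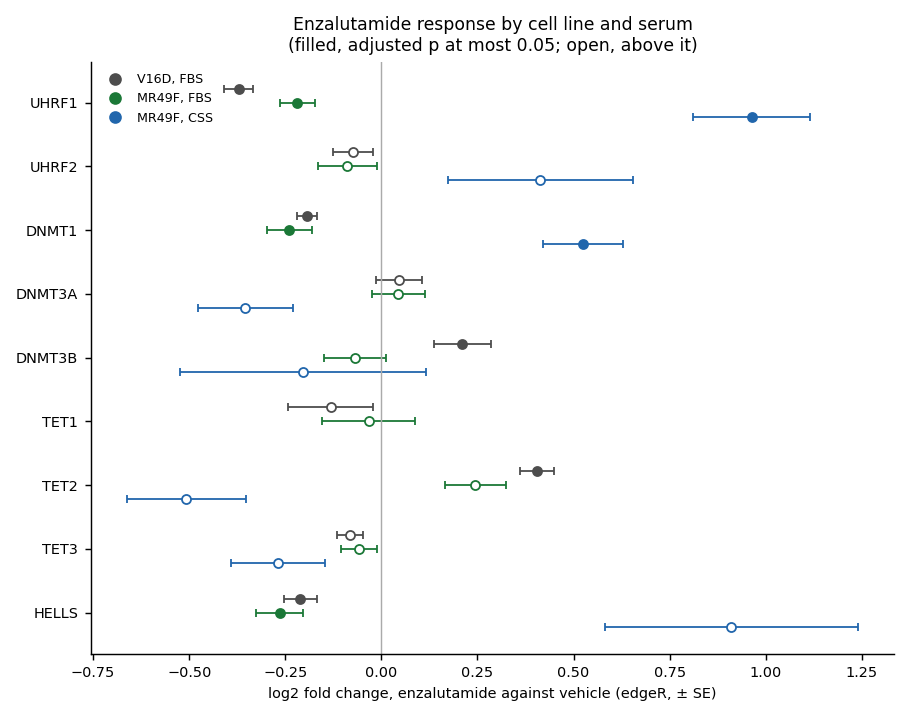
Log2 fold change with enzalutamide against vehicle (horizontal axis, edgeR, bars are SE) for each member (vertical axis) in V16D cells in FBS, MR49F cells in FBS and MR49F cells in CSS, 3 samples a group; filled points have an adjusted p of at most 0.05. UHRF1 is at -0.37 and -0.22 in FBS and at 0.96 in CSS, and TET2 at 0.41, 0.25 and -0.51.

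With DHT in CSS, 6 of the 8 members tested were called, against 37.5% of 11004 genes. UHRF1, DNMT1 and HELLS rose. UHRF1 rose to 11.1, 11.1 and 10.8 FPKM and 97, 93 and 107 counts, a log2 fold change of 1.43 (SE 0.148, adjusted p = 2.89e-08, edgeR). DNMT1 rose to 22.7, 22.6 and 24.2 FPKM (0.70 on the log2 scale of counts, adjusted p = 5.53e-06, edgeR). HELLS rose by 1.20 (SE 0.371, adjusted p = 0.013, edgeR) on counts of 12, 26 and 15 against 11, 8 and 6, a call lost without DHT replicate 2 (adjusted p = 0.158) and by DESeq2 (adjusted p = 0.0753). HELLS passed the count filter in this comparison only through the DHT samples, the higher group. These 3 genes serve the copying of methylation after replication.

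TET2, DNMT3A and DNMT3B fell with DHT. TET2 measured 2.93, 2.81 and 2.695 FPKM, below all vehicle samples, with a log2 fold change of -0.86 (SE 0.146, adjusted p = 4.5e-05, edgeR). DNMT3A measured 7.03, 6.56 and 6.67 FPKM against 11.6, 10.9 and 11.3, a log2 fold change of -0.52 (adjusted p = 0.00545, edgeR) that was lost without DHT replicate 3 (adjusted p = 0.0613) and by DESeq2 (adjusted p = 0.0738). DNMT3B had 6, 5 and 2 counts against 19, 11 and 13 with vehicle, a log2 fold change of -1.58 (SE 0.424, adjusted p = 0.00463, edgeR), not called by DESeq2 (adjusted p = 0.0646). DNMT3B passed the count filter only through the vehicle samples, the higher group. In FPKM its change was smaller, from 1.82 to 1.19 or 0.652 of the vehicle mean. Limma on log2(FPKM + 1) called the same 6 members, where it called 72.1% of genes. UHRF2 and TET3 had log2 fold changes of 0.35 (adjusted p = 0.29, edgeR) and -0.12 (adjusted p = 0.523, edgeR). TET1, too low in counts to be tested, measured 0.494, 0.51 and 0.453 FPKM with DHT and 0.694, 0.553 and 0.713 with vehicle.

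Set against each other, DHT gave higher UHRF1 than enzalutamide by 0.45 on the log2 scale (SE 0.127, adjusted p = 0.0157, edgeR), and no DHT sample overlapped an enzalutamide sample. The call was lost without enzalutamide replicate 2 or DHT replicate 3 (largest adjusted p = 0.0532) and by DESeq2 (adjusted p = 0.1475). DNMT3B was lower by 1.38 (adjusted p = 0.0288, edgeR), on the few counts given above and in 1 of 6 fits with a sample left out, and DESeq2 did not call it (adjusted p = 0.2245). Of 8 members tested, 2 were called and 19.4% of genes were. On FPKM, TET2 (-0.53), DNMT3A (-0.36) and DNMT1 (0.18) were called as well as UHRF1 and DNMT3B (largest adjusted p = 0.00909, limma), where 57.4% of genes were called.

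JQ-1, which displaces BET proteins from acetylated chromatin, lowered UHRF1 far more than any other member. UHRF1 had 7, 2 and 3 counts and 0.4505, 0.433 and 0.376 FPKM with JQ-1, against 50, 37 and 33 counts and 4.10 FPKM in each vehicle sample. The log2 fold change in counts was -3.50 (SE 0.331, adjusted p = 2.38e-12, edgeR), the 48th lowest of 11332 genes, and the FPKM means differed 9.78-fold. With enzalutamide present, JQ-1 took UHRF1 from 92, 85 and 56 counts to 3, 4 and 6, a log2 fold change of -3.84 (SE 0.269, adjusted p = 6.7e-12, edgeR) and a 17.8-fold difference in FPKM. With DHT present it took UHRF1 from 97, 93 and 107 counts to 5, 5 and 3, a log2 fold change of -4.67 (SE 0.246, adjusted p = 5.89e-18, edgeR) and a 25.8-fold difference in FPKM. In every comparison of JQ-1 the samples were separate, and each call held with any sample left out and under all 9 alternatives.

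**Figure D3:**
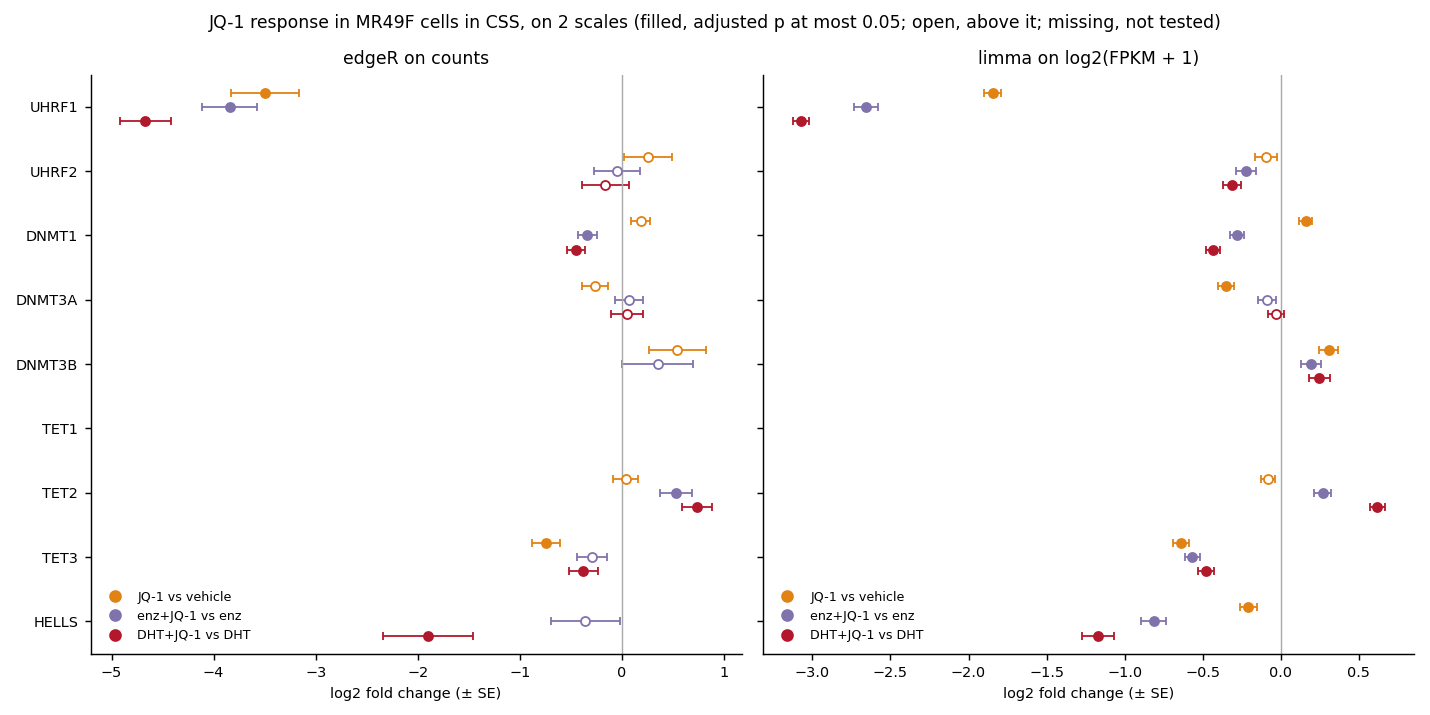
Log2 fold change with JQ-1 (horizontal axes, bars are SE) for each member, without ligand, with enzalutamide and with DHT in MR49F cells in CSS, from edgeR on counts (left) and limma on log2(FPKM + 1) (right), 3 samples a group; filled points have an adjusted p of at most 0.05. UHRF1 is the lowest point in all 3 comparisons on both scales, at -3.50, -3.84 and -4.67 on counts.

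The other members moved less with JQ-1. TET3, at 6.53 to 7.17 FPKM with vehicle and 3.79 to 4.20 with JQ-1, fell by 0.74 on the log2 scale of counts (SE 0.138, adjusted p = 1.5e-05, edgeR). It was also lower with JQ-1 beside DHT (-0.38, adjusted p = 0.0227, edgeR), a call that was lost without DHT replicate 1, DHT with JQ-1 replicate 1 or DHT with JQ-1 replicate 3 (largest adjusted p = 0.258) and by DESeq2 (adjusted p = 0.164). Beside enzalutamide TET3 was at -0.29 (adjusted p = 0.101, edgeR) and at -0.57 on log2(FPKM + 1) (adjusted p = 6.5e-06, limma). DNMT1 was at 0.18 with JQ-1 alone (adjusted p = 0.103, edgeR) and fell by 0.34 beside enzalutamide and by 0.45 beside DHT (adjusted p = 0.00396 and 3.48e-05, edgeR). With JQ-1 all DNMT1 samples lay between 16.1 and 18.3 FPKM, near the 15.05 to 15.97 FPKM of vehicle. HELLS, not tested with JQ-1 alone for its low counts, fell by 1.90 beside DHT (SE 0.441, adjusted p = 4.16e-04, edgeR), to counts of 5, 1 and 10. Beside DHT it passed the count filter only through the samples with DHT alone, the higher group. Beside enzalutamide HELLS was at -0.36 on counts (adjusted p = 0.417, edgeR) and at -0.81 on log2(FPKM + 1) (adjusted p = 1.53e-05, limma).

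TET2 rose when JQ-1 was added to a ligand. Beside DHT it went from 2.93, 2.81 and 2.695 FPKM to 4.95, 4.89 and 4.69 FPKM, a log2 fold change of 0.73 (SE 0.149, adjusted p = 7.73e-05, edgeR). Beside enzalutamide it rose by 0.53 (adjusted p = 0.00765, edgeR), a call lost without enzalutamide replicate 1 or enzalutamide with JQ-1 replicate 3 (largest adjusted p = 0.0745) and by DESeq2 (adjusted p = 0.0749). With JQ-1 alone it was at 0.04 (adjusted p = 0.829, edgeR). DNMT3B was highest within CSS under JQ-1, at 2.43, 2.50 and 2.51 FPKM against 1.61, 1.90 and 1.95 with vehicle (0.31 on log2(FPKM + 1), adjusted p = 0.00189, limma, and 0.54 on counts, adjusted p = 0.109, edgeR). TET1 measured 0.252, 0.289 and 0.226 FPKM with JQ-1, below all vehicle samples, on 3, 6 and 2 counts. Called on counts were 2 of 7 members with JQ-1 alone, 3 of 8 beside enzalutamide and 5 of 7 beside DHT, where 46.6%, 45.1% and 54.7% of genes were called. Limma on FPKM called 6 of 8 with JQ-1 alone and 7 of 8 beside enzalutamide and beside DHT, where 75.1%, 75.7% and 78.8% of genes were called. Not called on counts but by limma on log2(FPKM + 1) were DNMT1 (0.16), DNMT3A (-0.35) and HELLS (-0.21) with JQ-1 alone, beside DNMT3B. Beside enzalutamide UHRF2 (-0.22) and DNMT3B (0.20) were called so, as well as TET3 and HELLS. Beside DHT these were UHRF2 (-0.31) and DNMT3B (0.25), the latter not tested on counts.

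With JQ-1 present, few members were called when a ligand was added. With enzalutamide or DHT, edgeR called 0 of the 6 members tested on counts, against 4.5% and 22.1% of genes, nor did DESeq2 call any. At an unadjusted p under 0.05 (edgeR) were 0 members for enzalutamide and 1 for DHT (DNMT3B, at -0.60), and the share of all genes at that p was not counted. UHRF1 was under the count filter there and its FPKM samples overlapped. On FPKM DHT with JQ-1 was lower than JQ-1 for DNMT3A (-0.34), DNMT3B (-0.43) and TET2 (-0.24), the largest adjusted p being 0.00143 (limma, 53.3% of genes called). For enzalutamide with JQ-1 against JQ-1, limma called 0 members and 15.9% of genes. The FPKM samples there did not overlap for DNMT3B (means 2.26 and 2.48) and TET1 (means 0.363 and 0.256). How many of all genes did not overlap was not counted. The dependence of each ligand's effect on JQ-1 was tested as an interaction. For DNMT1 it was -0.52 with enzalutamide (SE 0.131, adjusted p = 0.0423, edgeR) and -0.63 with DHT (SE 0.126, adjusted p = 3.18e-04, edgeR). The first was kept in 3 of 12 fits with a sample left out and not by DESeq2 (adjusted p = 0.0869), and the second in all 12. TET2 had 0.69 with DHT (SE 0.19, adjusted p = 0.01, edgeR), which DESeq2 did not call (adjusted p = 0.0811). UHRF1 was at -0.35 and -1.18 and was not called on counts (adjusted p = 0.8705 and 0.2075, edgeR), while limma on log2(FPKM + 1) called it at -0.81 and -1.23 (adjusted p = 9.77e-05 and 3.15e-08). DNMT3A (0.26 and 0.32) and HELLS (-0.60 and -0.96) were also called by limma alone with both ligands, and TET2 (0.35) with enzalutamide. Called on counts were 1 and 2 of 8 members, against 0.895% and 12.3% of genes, and 5 and 5 of 8 by limma on FPKM, against 19.2% and 48.0%.

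UHRF1 was then set beside lists of cell cycle genes, since it is itself a gene of dividing cells. Of 33 S phase and replication genes, such as the MCM helicase subunits, 18 of 30 tested rose and 0 fell with enzalutamide in CSS (median 0.64), and 23 of 31 rose and 1 fell with DHT (median 1.09). Of all genes tested 4.38% rose and 2.87% fell with enzalutamide and 19.4% and 18.1% with DHT. UHRF1, at 0.96 and 1.43, lay within the spread of that list in both. With JQ-1 alone 14 of 28 fell and 1 rose (median -0.52), beside enzalutamide 23 of 29 fell (median -1.14) and beside DHT 27 of 30 fell (median -1.71), where 23.9%, 23.2% and 28.0% of all genes tested fell. UHRF1 lay below every tested gene of the list in all 3 comparisons. The next lowest was MCM5, at -2.71 (SE 0.272), -2.77 (SE 0.25) and -3.47 (SE 0.195).

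Of 20 G2/M genes, 6 rose and 2 fell of 18 tested with JQ-1 alone (median 0.15), while 22.8% of all genes tested rose and 23.9% fell with a median of 0.00. MKI67, a marker of cycling cells, measured 7.94, 7.71 and 8.42 FPKM with JQ-1 and 7.65, 7.57 and 7.91 with vehicle, and the groups overlapped (log2 fold change 0.02, adjusted p = 0.844, edgeR). PCNA, the replication clamp that tethers DNMT1, was at 0.36 (adjusted p = 0.0449, edgeR). The log2 ratio of UHRF1 to MKI67 in FPKM was -0.91 ± 0.0333 (SD, n = 3) with vehicle, -0.724 ± 0.0695 with enzalutamide and -0.596 ± 0.0372 with DHT, and -4.26 ± 0.197 with JQ-1. In MR49F cells in full serum the ratio was lower than in CSS vehicle, at -1.495 ± 0.160 with vehicle and -1.27 ± 0.0204 with enzalutamide. MKI67 itself measured 50.7 FPKM with vehicle in full serum and 7.71 in CSS. MYC, whose transcription is known to depend on BET proteins, fell by 0.80 with JQ-1 (adjusted p = 3.83e-10, edgeR).

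**Figure D4:**
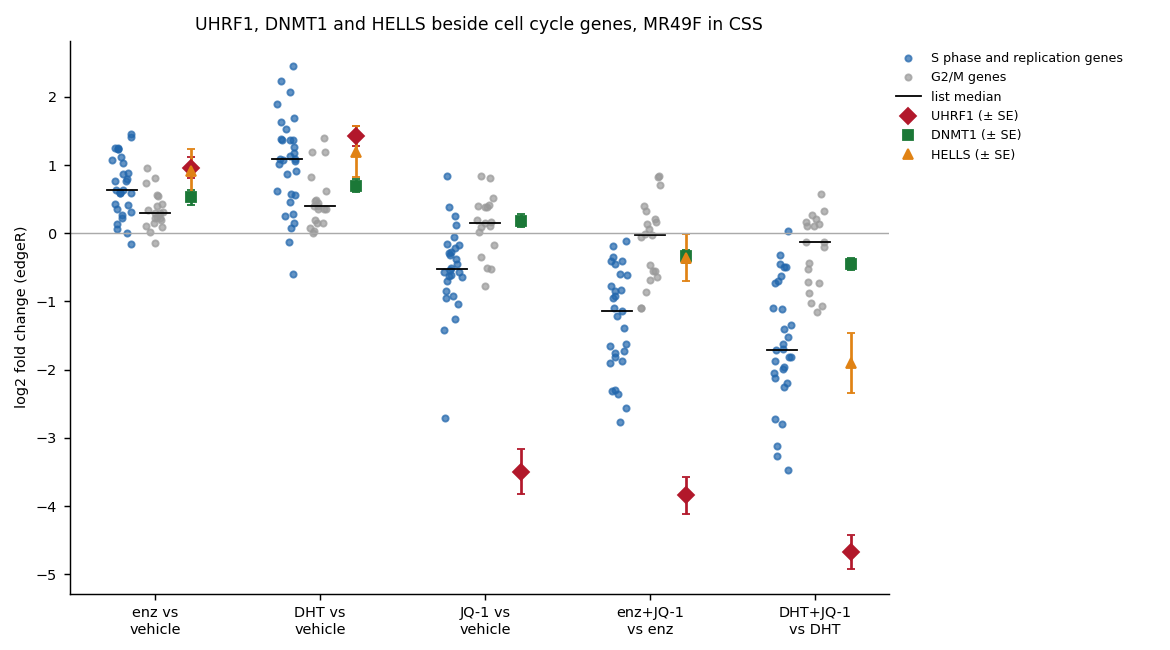
Log2 fold change (vertical axis, edgeR) of S phase and replication genes (blue), G2/M genes (grey, black lines are medians) and UHRF1, DNMT1 and HELLS (± SE) in 5 comparisons of MR49F cells in CSS, 3 samples a group; HELLS was not tested with JQ-1 alone. UHRF1 lies among the S phase genes with enzalutamide (0.96) and DHT (1.43) and below all of them in the comparisons of JQ-1.

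Cofactors of maintenance and targeting form a list of 15 genes, given on counts tested with edgeR. Of these 7 of 13 tested rose and 2 fell with DHT in CSS (median 0.41), where 19.4% of all genes rose and 18.1% fell. Highest were ZBTB24 (2.03, SE 0.179), CDCA7 (1.27, SE 0.366) and PCNA (1.25, SE 0.142), of which ZBTB24 and CDCA7 act with HELLS. With JQ-1 beside DHT CDCA7 fell by 3.02 (SE 0.484) and ZBTB24 by 1.26 (SE 0.171), and 4 of 13 fell and 2 rose, against 28.0% and 26.7% of all genes. With enzalutamide in CSS 3 rose (CDCA7 1.19, PCNA 0.96, LIG1 0.76) and 0 fell, against 4.38% and 2.87% of all genes. ZBTB24 fell with enzalutamide in full serum, by 0.82 in V16D (SE 0.0386) and by 0.62 in MR49F cells (SE 0.0546).

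Of 11 genes known to be silenced by promoter methylation in many tumours, such as GSTP1 and cancer-testis genes, 2 had enough counts to be tested in CSS. The first was SYCP3, whose CSS counts are doubtful for the reason given above. The second, the cancer-testis gene MAGEA3, was at -0.30 with JQ-1 alone (SE 0.133, adjusted p = 0.0577, edgeR), at -0.24 beside enzalutamide (adjusted p = 0.214, edgeR) and fell by 0.42 beside DHT (SE 0.136, adjusted p = 0.00818, edgeR). Changes of the other 9 were not detectable at these counts.

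By likeness of pattern, over the 12540 genes of at least 1 FPKM on average, the genes closest to UHRF1 across the 10 condition means were SMAGP (Pearson r of log2(FPKM + 1) = 0.998), ALG3, MCM5, LAD1 and SELRC1. Over the 6 CSS conditions they were TMEM109 (r = 0.9996), MMACHC, PPIF, RRP15 and C1QBP. Among the members over 10 conditions, UHRF2 had r = 0.962 (rank 477 of 12540 genes), HELLS 0.894 (rank 1584), TET3 0.881 (rank 1769) and DNMT1 0.8355 (rank 2371). DNMT3B had 0.369, whereas TET2 had -0.747 and DNMT3A -0.528. These describe 10 or 6 points that share libraries, serum and treatment, and they are across conditions, not replicates.

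Of the RefSeq transcripts that FPKM were assigned to, 1 made up 86.0% to 99.99% of UHRF1 by condition mean. The main transcript held 74.4% to 85.6% of DNMT1, 70.05% to 95.05% of DNMT3A and 90.2% to 96.0% of TET2. DNMT3B was spread over 6 transcripts, the share of the main one going from 22.8% to 93.3%, at a gene level of 1.19 to 3.30 FPKM that makes such shares uncertain. HELLS, TET1 and TET3 had 1 transcript each.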

How the data were processed

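Poly(A) RNA was sequenced from strand-specific libraries as single-end reads of 50 bases. Per the labels and the study's methods, the authors aligned reads to GRCh37 (hg19) with TopHat 2.0.9 and deposited raw read counts per gene from HTSeq (strand setting not given in the sources used here; CSS counts may hold reads of the opposite strand). FPKM of RefSeq transcripts, made by the authors with Cufflinks 2.1.1, were added up per gene here. Counts were tested with edgeR 4.0.16 (quasi-likelihood, TMM, filterByExpr at 10 counts and 15 in total, R 4.3.3) over all genes in 16 comparisons, each fit holding the groups compared. The comparison of sera used limma 3.58.1 on log2(FPKM + 1), a scale that understates changes of low genes, and kept genes that reached 1 FPKM in 3 samples. DESeq2 1.42.0 and limma on FPKM were among the alternatives. p-values were adjusted by Benjamini and Hochberg's method over all genes tested and called at 0.05. Groups followed the labels.

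The members, gene lists and tests were chosen with earlier results of these data known. All members were named. Of each list, up to 3 genes with the largest called change and at least 5 CPM were named, with KLK3, TMPRSS2, MKI67, PCNA and MYC as reference genes. A few genes that this rule would name are not reported here. SYCP3 and MAGEA3, the list genes tested in CSS, were also named where their calls did not pass. In counts simulated for DHT against vehicle in CSS (11112 genes), edgeR recovered 32, 43, 50 and 50 of 50 genes changed 1.5, 2, 4 and 8-fold and called 11 unchanged genes. The changed genes were drawn only from those above a minimum expected count, with the same spread set for every gene. HELLS, DNMT3B and TET1 in CSS vehicle lay below that minimum, so the recovery does not extend to them. Samples with the same replicate number did not deviate together (mean r from -0.0175 to 0.0301) and were not treated as pairs. Promoter sequences are from RefSeq on GRCh38.p14, and no coordinates were converted between builds.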

Additional observations from a re-analysis of the deposited data

Results flagged for a closer look

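The response to enzalutamide in MR49F cells differed between CSS and full serum for 4 members. The difference in log2 fold change (CSS minus full serum, edgeR on counts) was 1.23 for UHRF1, 0.81 for DNMT1, 1.23 for HELLS and -0.71 for TET2. The sera also differ in the number and the share of reads counted on genes, and the part of these was not tested.

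The effect of a ligand in CSS differed with JQ-1 present for DNMT1 and TET2. For DNMT1 the difference in log2 fold change was -0.52 for enzalutamide and -0.63 for DHT, and for TET2 it was 0.69 for DHT. DESeq2 did not call the DNMT1 value for enzalutamide (adjusted p = 0.0869) or the TET2 value (adjusted p = 0.0811). These 2 DNMT1 values share their vehicle and JQ-1 samples.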

How the results depend on the processing

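Limma on FPKM changed the number of members called most, and few reads were counted on genes in CSS, where UHRF1, HELLS, DNMT3B and TET1 had low counts. Enzalutamide in MR49F cells in full serum called 3 members on counts and 1 by limma on log2(FPKM + 1), on log2(FPKM + 0.1), with no filter and by the equal-variance test. Enzalutamide in CSS called 2, and 5 in each of these. DHT called 6, and 3 by DESeq2. DHT against enzalutamide called 2, and 5 by limma with either pseudocount and by the equal-variance test, 6 with no filter, 1 with the replicate block and 0 by DESeq2. JQ-1 alone called 2, and 6, or 7 with no filter. JQ-1 beside enzalutamide called 3, and 7, or 8 with no filter. JQ-1 beside DHT called 5, and 8 with no filter. DHT with JQ-1 against JQ-1 called 0, and 3 by each test on FPKM. The interaction of JQ-1 with enzalutamide called 1, and 5 by limma and 0 by DESeq2, and that with DHT called 2, and 5 by limma and 1 by DESeq2. TET3 between sera reversed, at -0.20 by edgeR. The causes were not tested. The share of genes called higher and lower also moved, for DHT from 19.4% and 18.1% on counts to 28.9% and 43.2% by limma. Shares of all genes called are given above for edgeR and for limma on log2(FPKM + 1). They were not counted for the other settings or for fits with a sample left out, so member counts there have no such measure.

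With a sample left out, the members called ranged from 4 to 6 for enzalutamide in V16D cells, 0 to 4 in MR49F cells in full serum, 5 to 5 between lines, 0 to 1 for the line interaction, 2 to 3 for enzalutamide in CSS, 5 to 6 for DHT, 0 to 2 for DHT against enzalutamide, 2 to 3 for JQ-1 alone, 2 to 3 beside enzalutamide and 4 to 6 beside DHT. They ranged from 0 to 0 for enzalutamide with JQ-1 against JQ-1, 0 to 1 for DHT with JQ-1 against JQ-1, 0 to 1 and 2 to 3 for the interactions of JQ-1 with enzalutamide and DHT, 3 to 5 for the serum interaction and 6 to 8 between sera. The replicate block, which rests on shared numbers only, gave 1 member for DHT against enzalutamide and changed no other count by over 1.5 times. In all, 911 values held with a sample left out, 12 became called and 43 were no longer called, and under other alternatives 940 held, 98 became called, 25 were no longer called and 1 reversed.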

Other observations

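Values of genes that remove or read methylated cytosine are given for CSS, on counts tested with edgeR. With DHT 9 of 15 tested genes of active demethylation and base excision repair rose and 2 fell (median 0.39), where 19.4% of all genes rose and 18.1% fell, led by IDH1 (2.07, SE 0.11), which makes the 2-oxoglutarate that TET enzymes use, and GADD45G (1.69, SE 0.281). With JQ-1 alone 4 of 14 rose and 6 fell (median -0.18), where 22.8% of all genes rose and 23.9% fell. GADD45A, a stress-induced gene, rose by 1.89 (SE 0.233), while the glycosylases NEIL1 and UNG fell by 1.53 (SE 0.164) and by 1.16 (SE 0.238).

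Among genes of methyl donor metabolism, MTR, methionine synthase, rose by 0.85 with DHT (SE 0.128). With JQ-1 beside DHT 6 of the 11 genes examined fell and 0 rose (median -0.39), where 28.0% of all genes fell and 26.7% rose, led by SHMT2 (-1.16, SE 0.093) and MTHFD1 (-1.11, SE 0.098), enzymes of folate metabolism. Among 8 readers of methylated CpG sites, ZBTB38 fell by 1.23 with JQ-1 alone (SE 0.144) and MBD1 rose by 0.85 (SE 0.122).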
